A study of Mus musculus with 12 samples.

Results

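Mitochondrial ribosomal protein genes were followed in retinas and striata of R6/1 animals, a transgenic mouse model of Huntington's disease, and of wild-type (wt) littermates. Members were the protein-coding genes of the deposited table whose symbol begins with Mrpl or Mrps followed by a digit. The table held 78 of them among 17579 genes, and all 78 had enough reads to be tested in every comparison. Of these, 51 encode proteins of the large subunit and 26 encode proteins of the small subunit. Mrps36, which carries the name but is known as a component of the 2-oxoglutarate dehydrogenase complex, was the remaining one. Mrps18a and Mrps30 carry small-subunit names but sit in the large subunit, and they were counted there.

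The 12 libraries comprised 3 each from R6/1 retina, wt retina, R6/1 striatum and wt striatum. Each library was a pool of RNA from 3 to 4 male mice aged 13 to 15 weeks on a C57BL/6 J background, so the spread between libraries is the spread between pools and not between mice. The R6/1 transgene is the start of the human huntingtin gene (its promoter and the first exon, with a lengthened CAG tract), and it adds to the intact mouse genes. Both tissues came from the same animals and no group received a treatment. The labels give the same extraction text, which names striata, for all libraries.

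Mitochondria keep a ribosome of their own that makes a small set of respiratory chain proteins from messages of mitochondrial DNA. Its RNA comes from the mitochondrial genome, while each of its proteins is encoded in the nucleus, made in the cytosol and imported. Many of these proteins descend from bacterial ribosomal proteins, and the others arose in the mitochondrial lineage. Photoreceptors and striatal projection neurons both have a high demand for respiration. The transcription factors NRF1 and GABP, an ETS factor, are textbook activators of nuclear genes for mitochondrial proteins, and YY1 also acts at such promoters.

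Promoter windows of 300 bases, from 250 before to 50 after the start site (RefSeq, GRCm38.p6), were found for 69 of the 78 members, with 75 windows in all. The NRF1 core GCGCANGCG was present on either strand in 16 windows (21.3%, against 6.25% of all windows of the same table). The ETS core CCGGAAGT was present in 12 windows (16.0%, against 3.89%), and the YY1 core AAGATGGCG in 8 (10.7%, against 1.40%). The TATA box TATAAA was present in 5 windows (6.67%, against 13.6%). Among the windows of protein-coding genes that the table lists, the shares were 10.96% for the NRF1 core, 6.53% for the ETS core, 2.37% for the YY1 core and 8.27% for the TATA box. At least 1 of the NRF1, ETS and YY1 cores was found for 34 members. These matches are descriptions of letters and do not show binding.

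The stretches below are those of members that the results turn on, each from 30 bases before the matched core, with the core in capitals, as examples of what these promoters hold. The first group, genes that differed between R6/1 and wt retinas, carried an NRF1 core on chr7:105811088-105811128 (- strand), chr1:79775953-79776017 (+), chr16:84735331-84735399 (-) and chr3:94443278-94443335 (+), and an ETS core on chr9:98601680-98601720 (-). These are 5 of the 8 members that passed the test between retinas. The windows of the other 3, Mrps2, Mrpl41 and Mrpl49, held none of the 4 motifs.
Mrpl17: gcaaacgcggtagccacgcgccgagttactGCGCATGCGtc
Mrpl44: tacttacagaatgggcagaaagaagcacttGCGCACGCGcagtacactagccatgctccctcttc
Mrpl39: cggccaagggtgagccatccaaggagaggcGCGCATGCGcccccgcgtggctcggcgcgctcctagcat
Mrpl9: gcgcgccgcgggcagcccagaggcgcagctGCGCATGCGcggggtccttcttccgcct
Mrps22: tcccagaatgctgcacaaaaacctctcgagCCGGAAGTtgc

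The second group, genes that differed between retina and striatum, carried an NRF1 core on chr11:120484527-120484595 (+) and chr13:14613038-14613090 (-), an ETS core on chr9:105053219-105053267 (+) and a TATA box on chr19:11770317-11770382 (+). They are shown because they had a match, out of 49 members called in at least 1 tissue comparison. No match was found for Mrpl49, Mrpl54, Mrpl24, Mrpl34, Mrpl23, Mrps12 and Mrps15, which also differed between wt tissues.
Mrpl12: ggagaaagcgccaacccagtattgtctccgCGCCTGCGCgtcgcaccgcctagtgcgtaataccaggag
Mrpl32: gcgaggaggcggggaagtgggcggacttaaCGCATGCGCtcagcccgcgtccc
Mrpl3: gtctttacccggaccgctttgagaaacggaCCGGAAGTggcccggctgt
Mrpl16: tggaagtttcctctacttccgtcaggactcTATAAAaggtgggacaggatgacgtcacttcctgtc

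Another shared feature was a close neighbour on the opposite strand. Of the 78 members, 31 (39.7%) had a protein-coding gene that starts within 1000 bases on the other strand, against 13.0% of the protein-coding genes in the table. These partners included Ndufs6 and Ndufb5, subunits of respiratory complex I, beside Mrpl36 and Mrpl47. They also included Fau, which encodes a cytosolic ribosomal protein, beside Mrpl49, and Sars2, the mitochondrial seryl-tRNA synthetase, beside Mrps12. Mrpl46 and Mrps11, 1 from each subunit, are divergent partners whose RefSeq start sites have 41 bases between them on chr7:78783090-78783130 (GRCm38.p6, + strand), shown because it separates the starts of both genes:
Mrpl46 and Mrps11: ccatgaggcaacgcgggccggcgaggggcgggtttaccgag

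Library totals were 17024353 to 17926885 estimated counts in R6/1 retina, 14070445 to 18661772 in wt retina, 15885261 to 22432431 in R6/1 striatum and 17206379 to 20159277 in wt striatum. The lowest count of any member in any library was 43, for Mrps28. One wt striatum library, replicate 2, stood nearer to R6/1 striata (mean Spearman correlation 0.9936 over genes) than to the other wt striata (0.9923), so the main striatal counts are given with and without it. Cone genes summed to 112 to 128 CPM (counts scaled to library size with TMM factors) in R6/1 retina, 1039 to 1190 CPM in wt retina and below 1 CPM in every striatum. Medium spiny neuron genes summed to 971 to 1860 CPM in R6/1 striatum and 3424 to 4868 CPM in wt striatum. Cortical excitatory neuron genes summed to 195 CPM in wt striatum replicate 2, against 504 and 550.6 CPM in the other wt striata. They summed to 185.5 to 273.9 CPM in R6/1 striata. Choroid plexus genes reached 140.7 CPM in R6/1 striatum replicate 3, against 5.47 to 18.4 CPM in the other striata. The part of these sums in the striatal values was not tested. Lens genes reached 490 CPM in R6/1 retina replicate 3, against 1.36 and 5.56 CPM in the other R6/1 retinas and 4.72 to 37.9 CPM in wt retinas. In such bulk samples, fewer cells of a type and less RNA per cell cannot be told apart.

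Taken as a sum, the members made up 0.152 to 0.192% of the counts of a library. Their summed level with TMM factors was 1802, 1602 and 1691 CPM in R6/1 retinas 1, 2 and 3, against 1613, 1648 and 1617 CPM in wt retinas. In the striatum it was 1604, 1600 and 1587 CPM in R6/1 mice, against 1697, 1659 and 1609 CPM in wt mice. The genotypes overlapped in the retina, where R6/1 replicate 2 lay below all wt libraries, while the 3 R6/1 striata lay below the 3 wt striata. When CPM was scaled to the plain library total in place of TMM factors, the mean sum was 1816 CPM in R6/1 retina against 1572 CPM in wt retina, and 1632 CPM in R6/1 striatum against 1567 CPM in wt striatum. As a plain share of counts the members made up 0.174 to 0.192% in R6/1 retinas, against 0.154 to 0.160% in wt retinas, without overlap. In the striatum the shares were 0.161 to 0.166% in R6/1 mice, against 0.152 to 0.162% in wt mice, with overlap. Whether the genotypes overlapped in the retina, and their order in the striatum, thus depended on the scaling.

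The small-subunit members summed to 567, 537 and 545 CPM in R6/1 retinas, against 519, 526 and 515 CPM in wt retinas, with no overlap. Large-subunit members summed to 1221, 1053 and 1134 CPM in R6/1 retinas, against 1082, 1107 and 1090 CPM in wt retinas, and these ranges overlapped. As plain shares of counts the large-subunit sums did not overlap (0.114 to 0.130% in R6/1 retinas, against 0.104 to 0.108% in wt retinas). The ratio of large to small was 1.96 to 2.16 in R6/1 retina and 2.09 to 2.12 in wt retina. It was 1.95 to 2.01 in R6/1 striatum and 1.90 to 1.96 in wt striatum. Retinal ratios mostly lay above striatal ones, and only R6/1 retina replicate 2 lay within the striatal range. A single large-subunit gene, Mrpl49, had 49.1 to 76.7 CPM in retinas and 22.9 to 29.3 CPM in striata. The ratios without Mrpl49 were not computed, so a difference of the whole subunit between tissues is not shown.

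**Figure D1:**
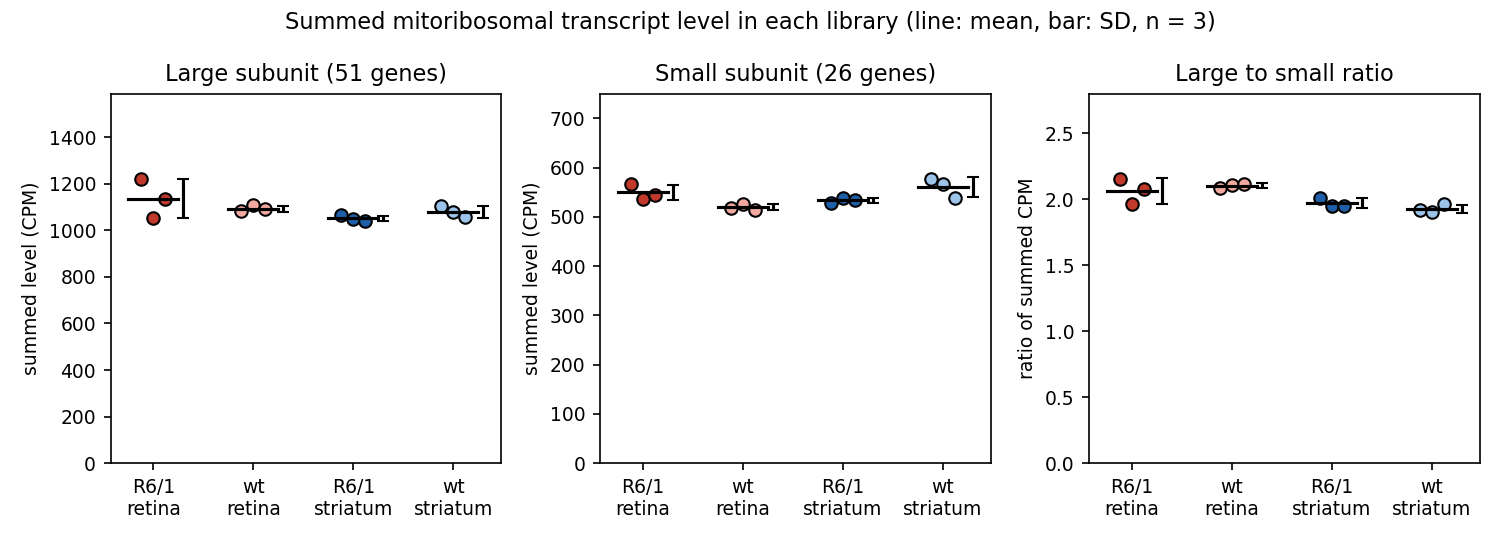
Summed level (CPM) of large-subunit members, of small-subunit members and their ratio in each of the 12 libraries, with points for libraries, lines for means and bars for the SD (n = 3 per group). Small-subunit members sum to 537 to 567 CPM in R6/1 retinas and 515 to 526 CPM in wt retinas, and the large to small ratio is 1.90 to 2.01 in all striata.

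Per kilobase of the longest annotated transcript, the members spanned a wide range of levels. Mrps21 had the highest mean over the 12 libraries at 48.3 CPM per kb, followed by Mrps33 at 32.9 and Mrpl24, a protein near the exit of the peptide tunnel, at 27.0. The lowest were Mrpl23, another exit-site protein, at 1.20 CPM per kb, Mrpl17 at 2.47 and Mrpl13 at 3.47. Before division by length Mrpl17 and Mrpl13 had means of 18.0 and 20.8 CPM. Their low places rest on longest annotated transcripts of 7300 and 6008 bases, and which transcripts these tissues express was not determined. Mrps21 and Mrpl23 held the ends of the order also per kilobase of merged exons, whereas Mrps33 then took rank 4 and Mrpl24 rank 7. Within groups the median coefficient of variation of a member between libraries was 7.48% in R6/1 retina, 6.50% in wt retina, 5.70% in R6/1 striatum and 6.91% in wt striatum.

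Comparing R6/1 with wt retinas asked whether the transgene shifts these genes in the eye. By edgeR's quasi-likelihood test with Benjamini-Hochberg adjustment over all genes, 6 members rose in R6/1 retina (7.69%, against 9.58% of all genes tested) and 2 fell (2.56%, against 12.7% of all genes). The remaining 70 did not pass an adjusted p of 0.05. Both shares were below the background in this fit, and that of risen members depended on the setting, as given below. The median log2 fold change of the 78 was 0.12, against 0.01 over all genes, and 65 of the 78 values were positive. No member had a 95% interval that reached beyond a 2-fold change. The libraries of the 2 genotypes did not overlap for 22 of the 78 members, against 38.4% of all genes.

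Mrpl44, an RNase III-like protein of the large subunit near the peptide exit, had 19.0, 16.6 and 18.0 CPM in R6/1 retinas, against 13.5, 13.97 and 12.6 CPM in wt retinas. Every R6/1 retina was above every wt retina. The log2 fold change was 0.46 ± 0.10 (SE) with an adjusted p of 0.00353 by edgeR, the smallest among the members.

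Mrps22, a mitochondria-specific protein of the small subunit, had 23.4, 20.9 and 24.0 CPM in R6/1 retinas, against 17.8, 17.3 and 20.0 CPM in wt retinas. Mrps2, the small-subunit relative of bacterial S2, had 26.6, 27.2 and 23.6 CPM in R6/1 retinas, against 20.6, 21.1 and 22.1 CPM in wt retinas. Both genes were without overlap between genotypes. Their log2 fold changes were 0.34 ± 0.10 and 0.31 ± 0.09 (SE), with edgeR adjusted p of 0.0178 for Mrps22 and 0.0200 for Mrps2.

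The 3 other members that rose belong to the large subunit. Mrpl41, a mitochondria-specific protein, had 22.2, 19.5 and 19.2 CPM in R6/1 retinas, against 16.3, 18.4 and 15.8 CPM in wt retinas (log2 fold change 0.30 ± 0.10 SE, edgeR adjusted p = 0.0401). Mrpl9, the relative of bacterial L9, had 34.0, 30.8 and 29.5 CPM in R6/1 retinas, against 24.97, 25.7 and 27.9 CPM in wt retinas (0.29 ± 0.08, edgeR adjusted p = 0.0188). All libraries of the genotypes were apart for both genes. Mrpl39, also mitochondria-specific, had 36.0, 31.4 and 37.3 CPM in R6/1 retinas, against 27.3, 29.1 and 30.9 CPM in wt retinas (0.29 ± 0.08, edgeR adjusted p = 0.0168). Its lowest R6/1 library was just above its highest wt library.

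The 2 members that fell are also proteins of the large subunit. Mrpl17, the relative of bacterial L17 at the peptide exit, had 15.5, 13.8 and 14.7 CPM in R6/1 retinas, against 20.1, 18.9 and 20.9 CPM in wt retinas. It fell by 0.41 ± 0.10 (SE) on the log2 scale, with an edgeR adjusted p of 0.0048 and no overlap between genotypes. Mrpl49, a mitochondria-specific protein, had 64.4, 49.1 and 61.9 CPM in R6/1 retinas, against 70.6, 76.7 and 73.5 CPM in wt retinas. It fell by 0.30 ± 0.09 on the log2 scale (edgeR adjusted p = 0.0264), and its lowest value came from R6/1 replicate 2. Among the other negative values the smallest p was that of Mrps5, a protein of the mRNA channel, which did not pass (-0.07, edgeR adjusted p = 0.483).

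**Figure D2:**
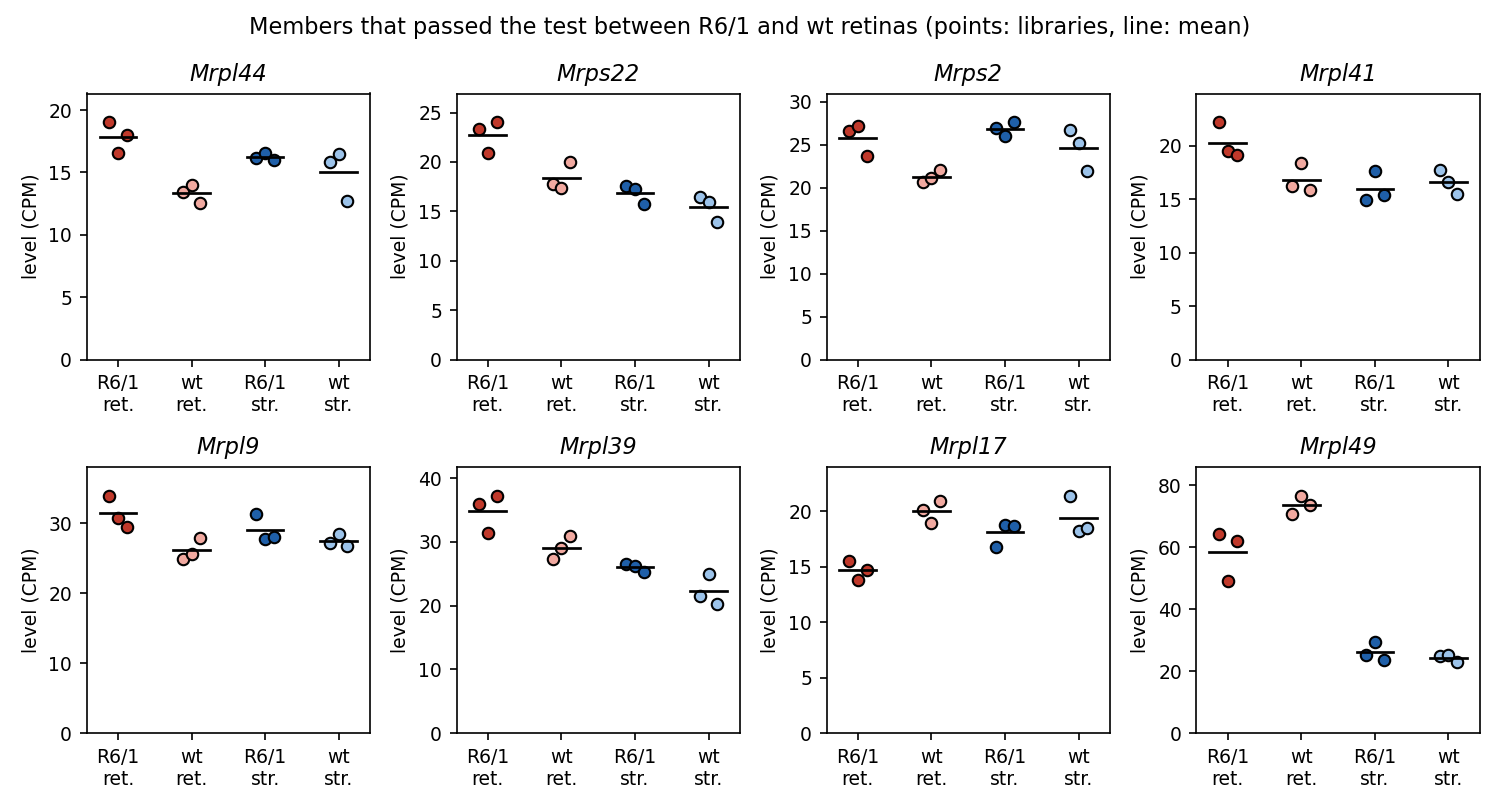
Level (CPM) of the 8 members that passed the test between R6/1 and wt retinas, in each of the 12 libraries, with points for libraries and lines for group means. In the retina every R6/1 library is above every wt library for 6 genes and below for Mrpl17 and Mrpl49. Mrpl49 has 49.1 to 76.7 CPM in retinas and 22.9 to 29.3 CPM in striata.

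Calls came from both subunits and both classes of protein, beside 9.58% of all genes risen and 12.7% fallen. Among the 46 members with a bacterial homolog, 2 rose (4.35%) and 1 fell (2.17%), with a median of 0.12 on the log2 scale. Of 31 mitochondria-specific members, 4 rose (12.9%) and 1 fell (3.23%), with a median of 0.13. By subunit, 7.84% of large-subunit and 7.69% of small-subunit members rose. Large-subunit members had a median of 0.12 (4 of 51 rose, 2 fell) and small-subunit members one of 0.13 (2 of 26 rose, none fell by edgeR, 7 passing an unadjusted p of 0.05 in either direction). The 7 proteins at the peptide exit included the largest rise and the largest fall, Mrpl44 and Mrpl17. The 8 proteins of the central protuberance had retinal log2 fold changes from -0.02 to 0.22, the 4 of the peptidyl transferase region from -0.03 to 0.33 and the 4 of the small-subunit head from 0.07 to 0.20.

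Mrpl44 rose and Mrpl17 fell under all 15 alternative settings, with log2 fold changes from 0.40 to 0.57 and from -0.46 to -0.30. The other 6 each lost their call in 4 to 6 settings, mostly when a library was left out. With R6/1 replicate 2 left out, 14 rose (17.9%, against 9.19% of all genes) and 1 fell (1.28%, against 12.7%). With R6/1 replicate 1 left out, 2 rose and 2 fell (2.56% each, against 7.62% and 11.1%). With wt replicate 1 left out, 1 rose and 1 fell (1.28% each, against 5.85% and 9.47%). Without wt replicate 2 the counts were 3 and 1 (3.85% and 1.28%, against 6.86% and 10.3%). Without wt replicate 3 they were 7 and 1 (8.97% and 1.28%, against 6.72% and 9.98%). Without R6/1 replicate 3, the library with lens genes, they were 4 and 2 (5.13% and 2.56%, against 7.6% and 10.8%). Scaling to library totals, which moved the median of all genes to 0.13, gave 29 risen (37.2%, against 23.4% of all genes) and 1 fallen (1.28%, against 8.71%) with a median of 0.24. Over 14 alternative settings at an adjusted p of 0.05, the share of risen members was above that of all genes in 3, which were library totals, the fit without R6/1 replicate 2 and the fit without wt replicate 3 (8.97% against 6.72%). The share of fallen members was above it in none of the 14 settings. Relative to all genes, the members' median therefore moved little with the scaling, while the counts of calls did. Rod genes (10 of 10), cone genes (6 of 6) and bipolar cell genes (4 of 4) fell in R6/1 retina. Rod genes summed to 20020 to 28040 CPM in R6/1 retinas, against 63640 to 71770 CPM in wt retinas. Microglial genes rose in 3 of 7 cases (summed 32.4 to 36.3 CPM in R6/1 retina and 21.9 to 22.2 CPM in wt retina). The part of these shifts in the members' values was not tested.

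Comparing R6/1 with wt striata gave no member that passed the test by edgeR, DESeq2 or limma-voom. The background was 0.132% of all genes risen and 1.32% fallen, and 10 members (12.8%, against 19.8% of all genes) had an unadjusted p under 0.05 by edgeR. The background itself depended on the fit. With replicate numbers as a block, taken to pair the striatal samples, 473 genes rose (2.83%) and 1190 fell (7.11%), against 0 and 2 members. DESeq2 gave 178 and 810 genes, and the fit of all 12 libraries 379 and 909. Without wt replicate 2, 715 genes rose (4.32%) and 1201 fell (7.25%), against 1 and 2 members, and the members' median was -0.015 with 36 positive values. Leaving out wt replicate 1, wt replicate 3, R6/1 replicate 1 or R6/1 replicate 3 left at most 1 risen and 26 fallen genes. The median log2 fold change was -0.03, against 0.01 over all genes, and 29 of 78 values were positive. All 95% intervals lay within a 2-fold change. With library totals as scaling the median was 0.08, against 0.12 over all genes, so its sign turned with the scaling. Of the 78 members, 14 had no overlap between genotypes, against 25.6% of all genes. Medium spiny neuron genes, 2 of 10 fallen (8 of 10 with the replicate block), were lower in summed level in every R6/1 striatum, and their part in the members' values was not tested.

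Mrpl47, a peptide-exit protein related to bacterial L29, had the smallest p in the striatum. It had 14.5, 14.4 and 13.1 CPM in R6/1 striata, against 18.8, 17.1 and 18.4 CPM in wt striata. The groups were apart, with a log2 fold change of -0.37 ± 0.09 (SE) and an edgeR adjusted p of 0.0889. In the retina its log2 fold change was 0.00, with a 95% interval from -0.20 to 0.20. With replicate numbers as a block, Mrpl47 and Mrps17, a small-subunit protein, fell and no member rose. Without wt striatum replicate 2, or without both striatal libraries of that number, Mrpl47 and Mrps17 fell and Mrps11 rose. Mrps17, chosen after its values were seen, had 44.9, 42.9 and 48.7 CPM in R6/1 striata, against 63.7, 46.0 and 58.9 CPM in wt striata. Here wt replicate 2 lay among the R6/1 libraries.

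Mrps11, the small-subunit partner of Mrpl46 across the stretch printed above, showed the same. It had 17.2, 16.3 and 15.7 CPM in R6/1 striata, against 13.0, 16.1 and 11.7 CPM in wt striata, with wt replicate 2 within the R6/1 range (log2 fold change 0.26 ± 0.13 SE, edgeR adjusted p = 0.289). Among positive values the other small p belonged to Mrpl39 (0.22 ± 0.09, edgeR adjusted p = 0.234) and Mrpl23 (0.37 ± 0.19, edgeR adjusted p = 0.310). Among negative ones they belonged to Mrps21 (-0.24 ± 0.08, edgeR adjusted p = 0.139) and Mrpl48, a central protuberance protein (-0.22 ± 0.07, edgeR adjusted p = 0.154).

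**Figure D3:**
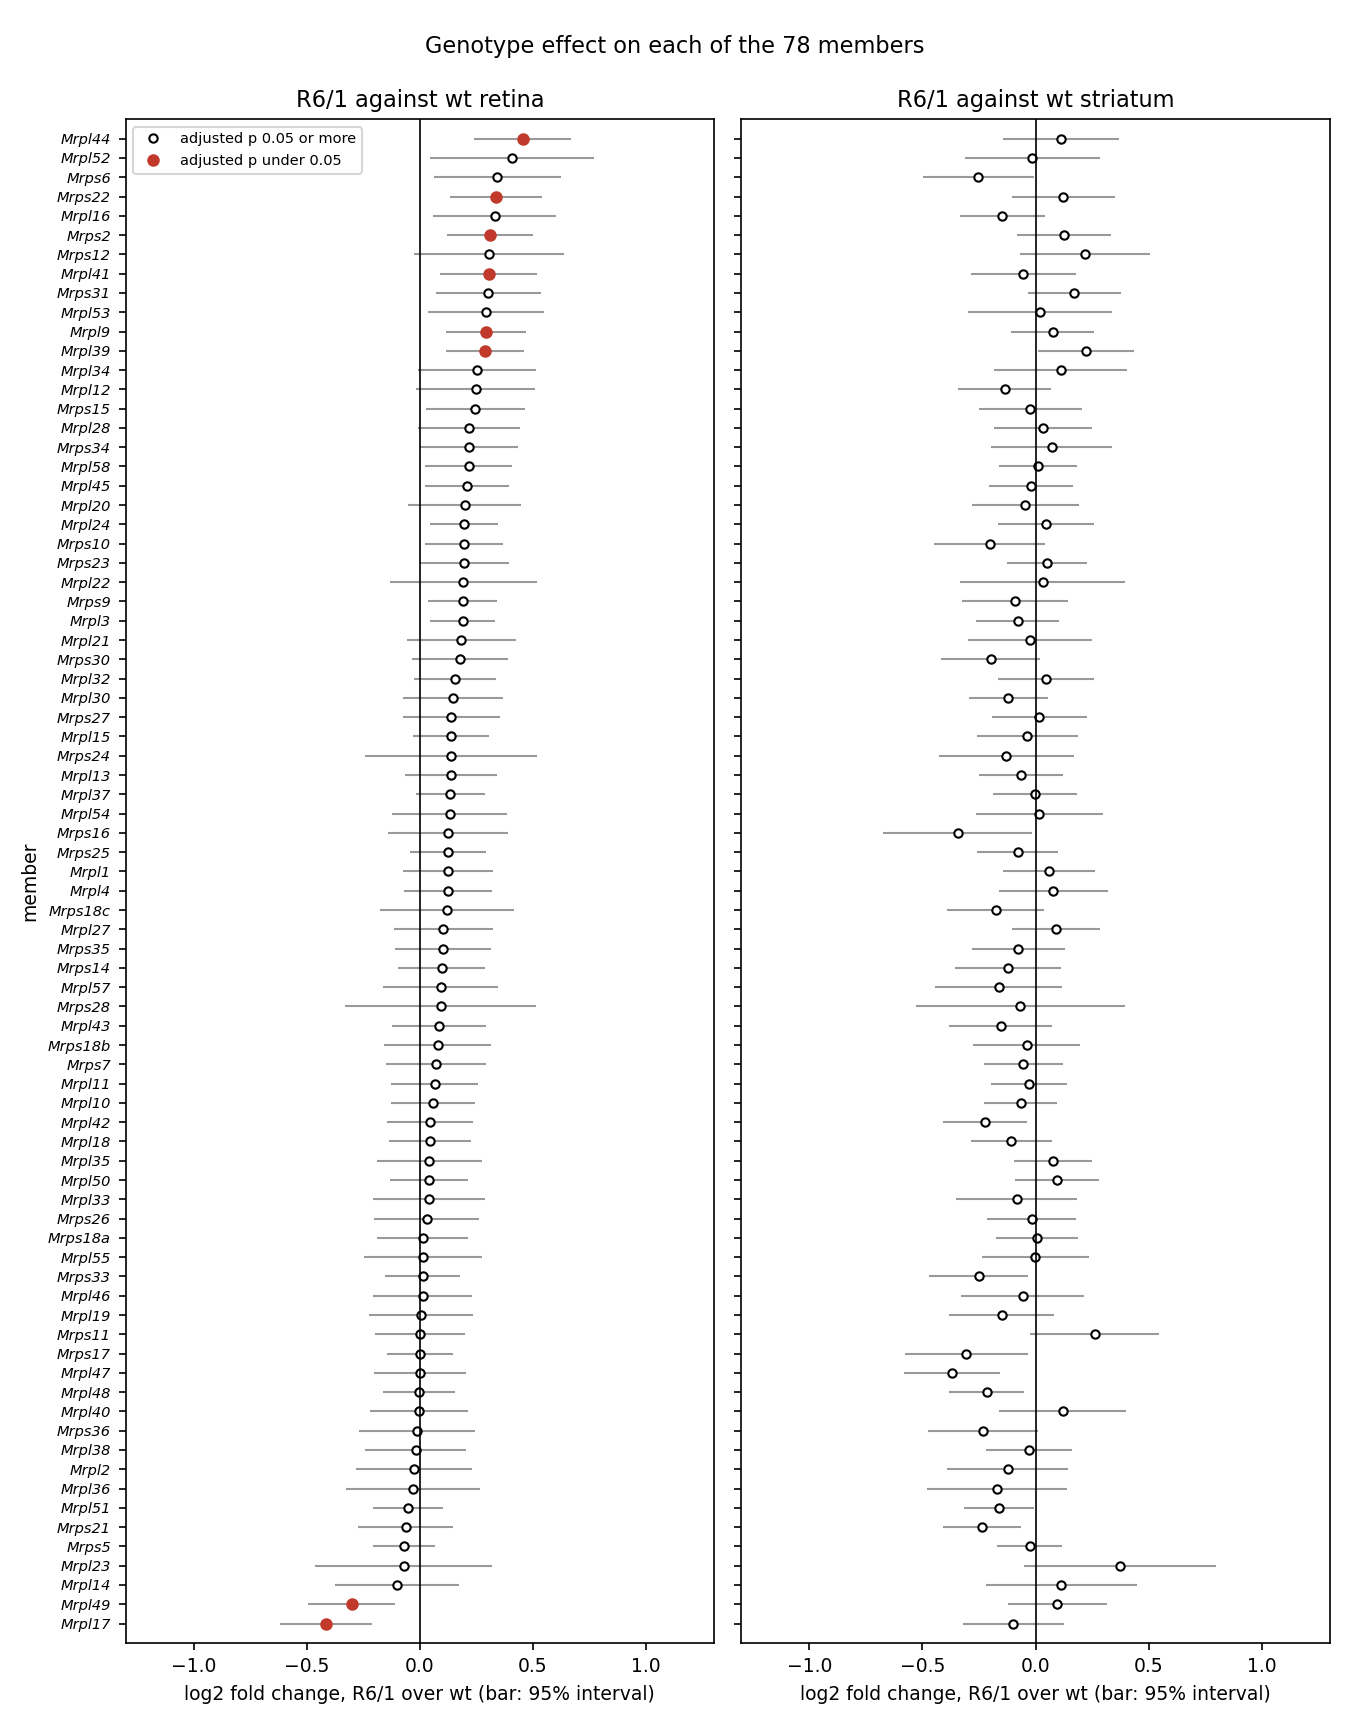
Log2 fold change of R6/1 over wt for each of the 78 members in retina and striatum, ordered by the retinal value, with 95% intervals as bars and filled points for an adjusted p under 0.05. The retinal values lie mostly right of 0 (65 of 78 positive, 8 called), and the striatal ones lie around 0 (29 of 78 positive, none called by edgeR).

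Whether the genotype effect differed between the tissues was tested in a fit of all 12 libraries. This fit took the libraries as independent, although both tissues came from the same animals. Its replicate block joined R6/1 and wt libraries of the same number within each tissue, the retina included, and did not join the tissues. No member passed by edgeR, DESeq2 or limma-voom, against 3.34% of all genes with a higher and 4.79% with a lower effect in the retina, and 11 members (14.1%, against 23.1% of all genes) had an unadjusted p under 0.05 by edgeR. The median difference of the members was 0.13 on the log2 scale, against -0.01 over all genes, and 65 of 78 values were positive. For 77 members the 95% interval of the difference lay within 2-fold. The exception was Mrpl23, whose interval ran from -1.07 to 0.13.

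Mrps6, a small-subunit protein, came nearest. It had 10.7, 9.05 and 9.80 CPM in R6/1 retinas against 8.97, 7.90 and 6.96 CPM in wt retinas, and 9.92, 9.94 and 8.63 CPM in R6/1 striata against 11.4, 11.4 and 11.1 CPM in wt striata. The genotypes thus lay on opposite sides in the 2 tissues, without overlap in either. The difference of effects was 0.57 ± 0.17 (SE) on the log2 scale, with an edgeR adjusted p of 0.053, and it passed with the replicate block and without wt retina replicate 1. Its exons overlap those of Slc5a3 on the same strand, so reads of these genes may be shared.

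Mrpl16, a protein of the peptidyl transferase region, had 13.9, 12.3 and 13.1 CPM in R6/1 retinas against 8.64, 10.8 and 12.4 CPM in wt retinas, where ranges overlapped. In the striatum it had 21.1, 20.4 and 20.3 CPM in R6/1 mice against 24.3, 22.4 and 21.6 CPM in wt mice, with R6/1 below wt in all. The difference was 0.45 ± 0.16 (edgeR adjusted p = 0.102), and it passed without wt retina replicate 3. Mrps10, a protein of the small-subunit head, had a difference of 0.37 (edgeR adjusted p = 0.126). On the negative side stood Mrpl49 (-0.43 ± 0.14, edgeR adjusted p = 0.0837), Mrpl17 (-0.35 ± 0.13, edgeR adjusted p = 0.119) and Mrps11 (-0.29 ± 0.15, edgeR adjusted p = 0.281). Without wt striatum replicate 2, Mrpl3 and Mrps17 passed as higher, and Mrps17 alone passed without both striatal libraries of that number.

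Retina and striatum were then compared within each genotype, again with libraries taken as independent although the tissues came from the same animals. In wt mice, 16 members were higher in retina (20.5%, against 37.8% of all genes) and 24 lower (30.8%, against 38.5% of all genes). In R6/1 mice, 22 were higher in retina (28.2%, against 36.3% of all genes) and 13 lower (16.7%, against 36.9% of all genes). The members thus differed in a smaller share than all genes in both genotypes and directions. The differences were also small in size. Without wt striatum replicate 2 the counts in wt mice were 18 higher and 23 lower. Only 2 members in wt and 1 in R6/1 mice differed by more than 2-fold, against 45.2% and 41.0% of all genes. The median log2 difference was -0.07 in wt and 0.06 in R6/1 mice.

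Mrpl49 differed most. It had 70.6, 76.7 and 73.5 CPM in wt retinas, against 25.04, 25.1 and 22.9 CPM in wt striata (log2 difference 1.59 ± 0.07 SE, edgeR adjusted p = 3.12e-09). In R6/1 mice, where the retinal level was reduced as given above, the log2 difference was 1.17 ± 0.12 (edgeR adjusted p = 1.29e-05). Its exons overlap those of Syvn1 on the opposite strand, and no source used here states whether counting used strand. Fau, which starts 59 bases away on the other strand, had a log2 difference of 0.01 in wt mice (edgeR adjusted p = 0.954). In R6/1 mice it had 0.30 (edgeR adjusted p = 0.0105). Both genes thus passed as higher in retina in R6/1 mice, and Mrpl49 without Fau in wt mice.

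Of the 16 members higher in wt retina, 11 belong to the large subunit and 5 to the small subunit (Mrps5, Mrps10, Mrps11, Mrps22 and Mrps28, with log2 differences from 0.22 to 0.60). Mrpl32, a protein matured by a mitochondrial protease before it joins the ribosome, had 27.1, 26.4 and 29.1 CPM in wt retinas, against 17.9, 18.2 and 16.0 CPM in wt striata (log2 difference 0.66, edgeR adjusted p = 3.76e-05). Mrpl54, at the stalk base, had 12.2, 11.8 and 11 CPM in wt retinas, against 6.58, 7.53 and 6.88 CPM in wt striata (0.73, edgeR adjusted p = 0.000176). Both were without overlap, and both were also higher in R6/1 retina, by 0.75 for Mrpl32 and 0.83 for Mrpl54. At the peptide exit Mrpl23 (0.89), Mrpl24 (0.40) and Mrpl47 (0.34) were higher in wt retina and the other 4 members there did not pass. Mrpl14 (0.69), Mrpl34 (0.63) and Mrpl39 (0.38) completed the list of 8 with the smallest p in that direction.

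Members lower in wt retina included 2 of the 4 proteins of the peptidyl transferase region, while Mrpl2 and Mrpl4 there did not pass. Of the 4 proteins at the stalk base, Mrpl10 was lower (-0.31), Mrpl54 was higher as given above, and Mrpl11 and Mrpl53 did not pass. Mrpl16 had 8.64, 10.8 and 12.4 CPM in wt retinas, against 24.3, 22.4 and 21.6 CPM in wt striata (log2 difference -1.10, edgeR adjusted p = 9.58e-06). Mrpl12, the protein of the flexible stalk that recruits translation factors, had 9.97, 13.3 and 10.9 CPM in wt retinas, against 22.9, 22.6 and 20.7 CPM in wt striata (-0.96, edgeR adjusted p = 1.38e-05). Neither gene had a retinal library within the striatal range. Mrpl3, at the peptidyl transferase region, had 40.3, 38.2 and 39.9 CPM in wt retinas, against 69.2, 56.6 and 65.2 CPM in wt striata (-0.69, edgeR adjusted p = 1.39e-05). Mrps12, a protein of the decoding region, was lower by a log2 difference of -0.84 (edgeR adjusted p = 0.000957). Mrpl35 (-0.63), Mrps15 (-0.62), Mrpl57 (-0.53) and Mrps24 (-0.63) completed the 8 with the smallest p.

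The pattern recurred in R6/1 mice, whose libraries are not those of the wt comparison. Members called in both genotypes were 14 higher in retina (87.5% of the wt list and 63.6% of the R6/1 list) and 12 lower (50% and 92.3%). No member was called in opposite directions, and 29 were called in neither. The same overlap was not computed over all genes, so it is not shown to be particular to the members. Of all genes, 37.8% were higher and 38.5% lower in wt retina, and 36.3% and 36.9% in R6/1 retina. Over the 78 members the log2 differences of the genotypes correlated with Pearson's r of 0.91 and Spearman's coefficient of 0.90, given as a description across genes that share each library. By the smallest p, the higher ones in R6/1 mice were Mrpl49, Mrpl32, Mrpl24 (0.53), Mrps10 (0.70), Mrpl47 (0.69), Mrpl54, Mrpl34 (0.75) and Mrpl39 (0.43). The lower ones were Mrpl35 (-0.68), Mrps12 (-0.77), Mrpl16 (-0.64), Mrpl3 (-0.45), Mrpl12 (-0.59), Mrps18a (-0.40), Mrps15 (-0.38) and Mrpl19 (-0.37).

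**Figure D4:**
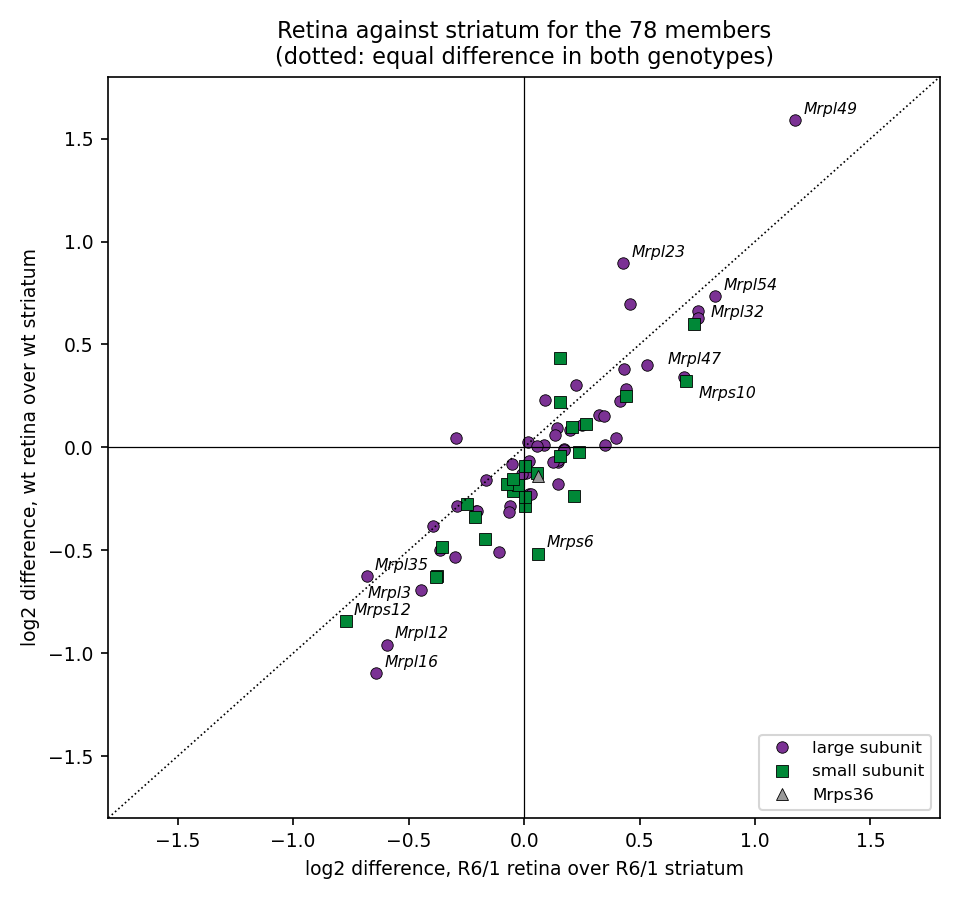
Log2 difference of retina over striatum in R6/1 mice (horizontal axis) and in wt mice (vertical axis) for the 78 members, marked by subunit, with a dotted line where both are equal. Mrpl49 stands apart at the upper right (1.17 in R6/1, 1.59 in wt), and Mrpl16 (-0.64 and -1.10) and Mrpl12 (-0.59 and -0.96) at the lower left.

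The paralogs Mrps18a, Mrps18b and Mrps18c, all related to bacterial S18, occupy different places in the ribosome. Mrps18c was counted above as the bacterial homolog, and Mrps18a and Mrps18b as mitochondria-specific. Mrps18a was lower in retina than in striatum in wt mice (log2 difference -0.38, edgeR adjusted p = 0.00202) and in R6/1 mice (-0.40, edgeR adjusted p = 0.00213). Mrps18c was lower in wt retina (-0.45, edgeR adjusted p = 0.00772) and had -0.17 in R6/1 mice (edgeR adjusted p = 0.249). Mrps18b had -0.09 in wt and 0.00 in R6/1 mice and passed in neither. Between genotypes their retinal log2 fold changes were 0.01 for Mrps18a, 0.08 for Mrps18b and 0.12 for Mrps18c, with no call.

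Divergent neighbours differed between tissues together with their member in some pairs, in the same or in opposite directions. Of the 29 partners outside the family, 20 differed between wt retina and striatum, where 37.8% of all genes were higher and 38.5% lower. Eme1, beside Mrpl27, had no value in that comparison. Of the members in these pairs 14 differed, and in 10 pairs both genes did, in the same direction in 4. In R6/1 mice 22 partners differed, where 36.3% of all genes were higher and 36.9% lower. There 15 of the members differed, and both genes of 12 pairs, 7 of them in the same direction. Whether pairs differed together more often than these separate counts give was not tested. Mrps12 (-0.84) and Sars2 (0.56, edgeR adjusted p = 0.00322), whose starts lie 172 bases apart, went opposite ways in wt mice. So did Mrpl47 (0.34) and Ndufb5 (-0.41, edgeR adjusted p = 0.000288), whose exons overlap on opposite strands, so reads of these genes may be shared. Mrpl54 (0.73) and Apba3 (0.80, edgeR adjusted p = 0.000335), with starts 26 bases apart, went the same way.

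Other genes of the pathway place these values, beside 9.58% of all genes risen and 12.7% fallen in R6/1 retina. In R6/1 retina the nuclear-encoded respiratory chain subunits had a median log2 fold change of 0.17, and 22 of 76 rose and none fell by edgeR (37 at an unadjusted p under 0.05 in either direction). Ndufa8 of complex I (0.41, edgeR adjusted p = 0.00122), Atp5o of ATP synthase (0.35, edgeR adjusted p = 0.00199) and Cox8a of cytochrome oxidase (0.37, edgeR adjusted p = 0.00294) led them. Cytosolic ribosomal proteins had a median of 0.13, close to that of the mitochondrial ones, and 9 of 81 rose, led by Rpl13 (0.29) and Rpl36al (0.30). Of 13 mitochondrially encoded proteins, mt-Atp8 (0.30) and mt-Atp6 (0.29) rose.

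Among 15 mitochondrial translation factors, Guf1, a ribosome-bound GTPase, rose by 0.62 (edgeR adjusted p = 9.78e-07), Mtrf1l, a release factor, rose by 0.48 and Lrpprc, an mRNA stabiliser, fell by 0.22 in R6/1 retina. Of 20 tRNA ligases and amidotransferase subunits, Cars2 (0.34) rose and Mars2 (-0.37) and Rars2 (-0.24) fell. Of 26 assembly and rRNA modification factors, Mtg1 (0.38), a GTPase of ribosome assembly, rose and Mettl17 (-0.27) and Malsu1 (-0.34) fell. Polg2, the accessory subunit of the mitochondrial DNA polymerase, fell by 1.01 (edgeR adjusted p = 1.00e-06) and Ssbp1 rose by 0.21 among 11 genes of mitochondrial transcription and DNA maintenance. Gadd45gip1 (0.39) rose among 5 mitoribosomal proteins named outside the Mrp series.

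In the striatum the edgeR fit of these lists gave only Mettl17, lower by -0.58 (edgeR adjusted p = 0.0467), and mt-Nd6, lower by -0.46 (edgeR adjusted p = 0.0474). Medians there were -0.22 for mitochondrially encoded proteins, -0.11 for respiratory chain subunits and -0.12 for cytosolic ribosomal proteins, against -0.03 for the mitochondrial ribosomal proteins. With the replicate block, 4 of 13 mitochondrially encoded proteins, 5 of 76 respiratory chain subunits and 7 of 81 cytosolic ribosomal proteins fell. In that fit 1 assembly factor also fell and 1 translation factor rose. Over all genes 7.11% fell and 2.83% rose there, so the shares of fallen respiratory chain and cytosolic ribosomal genes were near the background. Without wt striatum replicate 2, 2 mitochondrially encoded proteins, 1 respiratory chain subunit and 1 assembly factor fell, and 1 translation factor rose. Over all genes 7.25% fell and 4.32% rose in that fit. The genotype effect was higher in the retina for 11 of 76 respiratory chain subunits (14.5%) and 4 of 13 mitochondrially encoded proteins (30.8%). It was higher for 2 of 81 cytosolic ribosomal proteins (2.47%) and none of the 78 members by edgeR, against 3.34% of all genes. Without wt striatum replicate 2 these counts were 12, 4 and 2, against 2 members and 5.76% of all genes. Mars2, Polg2, Lrpprc and Mterf4 differed the other way in the main fit, as did 4.79% of all genes. The mitochondrially encoded genes made up 8.76 to 9.63% of counts in R6/1 retina and 7.61 to 8.18% in wt retina, and 11.3 to 12.1% in R6/1 striatum and 11.4 to 12.9% in wt striatum.

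Between wt tissues the lists parted. Respiratory chain subunits were mostly lower in retina (52 of 76 lower, 5 higher, median -0.44), as were all 13 mitochondrially encoded proteins (median -0.64). Assembly factors were more often higher (12 of 26 higher, 5 lower, median 0.26), as were tRNA ligases (12 of 20 higher, 4 lower, median 0.43). Translation factors (6 of 15 higher, 1 lower) and genes of transcription and DNA maintenance (6 of 11 higher, 1 lower) were also more often higher than lower. The higher shares were 46.15% of assembly factors, 60.0% of tRNA ligases, 40.0% of translation factors and 54.55% of the last list. Over all genes, 37.8% were higher and 38.5% lower, so the higher share of translation factors was near that of all genes. The mitochondrial ribosomal proteins lay between these lists at a median of -0.07. Cytosolic ribosomal proteins (8 of 81 higher, 29 or 35.8% lower) lay at -0.16. Over all genes the median was 0.00.

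**Figure D5:**
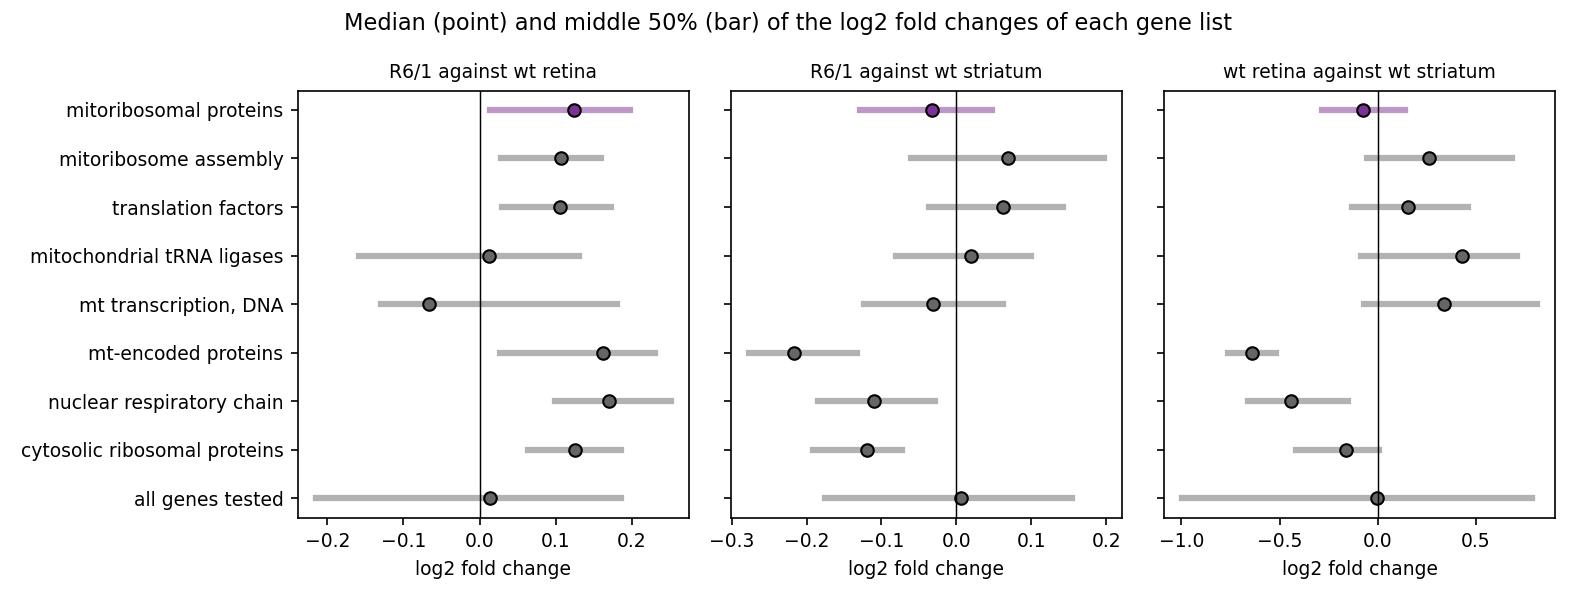
Median (point) and middle 50% (bar) of log2 fold changes for the mitochondrial ribosomal proteins, 7 other lists and all genes tested, in R6/1 against wt retina, R6/1 against wt striatum and wt retina against wt striatum, with scales that differ between panels. The members' medians are 0.12, -0.03 and -0.07, and those of the nuclear respiratory chain subunits are 0.17, -0.11 and -0.44.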

How the data were processed

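The authors made stranded mRNA libraries from pooled RNA, which were processed with CASAVA (base calls), Trimmomatic (trimming) and Salmon (quantification on GRCm38/mm10) (versions and use of strand not given in the sources used here). Values in the deposited table are estimated counts, whole and not normalized, and the lowest sum of a gene over the 12 libraries is 11. Symbols and coordinates came from GENCODE M21 (17527 genes matched, 52 did not). Groups came from the sample titles. Replicates are separate pools, and p-values measure the spread between them.

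Genes with at least 10 counts over the libraries compared were fitted with edgeR 4.0.16 in R 4.3.3 (TMM factors, robust quasi-likelihood F-test), with Benjamini-Hochberg adjustment over all genes fitted and a threshold of 0.05. SE is the absolute log2 fold change divided by the square root of F. CPM (counts scaled to the effective library size) used TMM factors over all 12 libraries. As alternatives, limma-voom (limma 3.58.1), DESeq2 1.42.0, other size factors and filters, an adjusted p under 0.01, leaving out each library, a fit of all 12 libraries and replicate blocks were run. Fits leaving 2 libraries in a group pool the spread over groups. Leaving out both striatal libraries numbered 2 was added after the data were seen. Same-numbered libraries deviated together over 10445 genes in the striatum (r 0.274, 0.329 and 0.257) and between R6/1 tissues (0.242, 0.119 and 0.179). Numbers were taken to pair samples there, and not in the retina or between wt tissues. The labels state no such pairing. For striatal number 3, the highest r with another number was 0.240, close to that with its own.

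Named members were those that passed with the smallest p (up to 12 each way for genotype, 8 otherwise), or else the 3 with the smallest p each way, the Mrps18 paralogs, the 3 highest and 3 lowest per kilobase, and up to 3 genes of each other list. Members, lists and tests were chosen with earlier results of these data known. Of 5 annotated pseudogenes, 1 is in the table and none is a member. Exons of 8 members overlap another gene on the same strand and those of 28 on the other strand. Fits were tested on simulated counts. Summaries used pandas 2.3.3, numpy 2.4.6 and scipy 1.17.1 in Python 3.11.15, and figures used matplotlib 3.10.9.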

Additional observations from a re-analysis of the deposited data

How the results depend on the processing

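In the retina, library totals gave 29 risen and 1 fallen members, against 3886 and 1445 of 16582 genes, with a median log2 fold change of 0.239, and an adjusted p under 0.01 gave 1 risen and 1 fallen. Leaving out single libraries gave 1 to 14 risen, 1 to 2 fallen and medians from 0.069 to 0.144. Mrps5, not called in the retina, had 0.045 in place of -0.07 with library totals. In the striatum the replicate block gave 2 fallen, the fit of all 12 libraries 1 fallen (Mrpl47), and leaving out both striatal libraries numbered 2 gave 1 risen and 2 fallen. Single libraries left out there gave 0 to 1 risen and 0 to 2 fallen, and library totals a median of 0.078. For the difference between tissues the replicate block gave 1 higher (Mrps6), leaving out both striatal libraries numbered 2 gave 1 higher (Mrps17), and single libraries left out gave 0 to 2 higher. For R6/1 retina against R6/1 striatum, medians were 0.116 with library totals and 0.011 to 0.113 with single libraries left out, and 13 members were higher at an adjusted p under 0.01. In the retina, where numbers did not pair the samples, the replicate block gave 7 risen and 2 fallen, and between wt tissues 14 higher and 23 lower. It gave 21 higher and 15 lower between R6/1 tissues. Summed levels moved with library totals as given above. Per kilobase of merged exons, Mrps33 took rank 4, Mrpl24 rank 7, Mrpl13 rank 74 and Mrpl17 rank 75. The YY1 core was in 2.67% of member windows upstream of the start only, against 10.7% in the whole window. The cause of these moves was not tested. The other 210 summary values over these settings moved by less than 1.5 times or the spread between replicates. Of the values of single genes and of the descriptions, 30 lost a call, 9 gained one, 9 moved by more than the spread between replicates or by rank, 1 changed sign (Mrps5) and 802 did none of these. In the striatum, changes smaller than the 95% intervals were not detectable.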
